A study of Mus musculus with 6 samples.

Results

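Angiopoietin, VEGF and endothelial-associated genes were described as a group of 10 genes, chosen by symbol, in satellite cells taken directly from skeletal muscle, where they are the resident stem cells. They are *Tek*, *Tie1*, *Angpt1*, *Vegfa*, *Kdr*, *Flt1*, *Pecam1*, *Cav1*, *Lrg1* and *Tm4sf1*, and all 10 were among the 17152 genes tested, out of 54115 genes with a matched transcript. RNA-sequencing was performed on 3 Pax7WT and 3 Pax7KR samples of uninjured hindlimb muscle from mice 6 to 8 weeks old. Pax7KR mice carry arginine in place of an acetylated lysine on both copies of *Pax7*, a change made by CRISPR/Cas9 in C57BL/6J zygotes, and the Pax7WT mice were their littermates. Cells were sorted as positive for α7-INTEGRIN and CD34 and negative for CD31, CD11b, SCA-1 and CD45, so the gate removed endothelial cells by the protein that *Pecam1* encodes. The mutation is present in every cell of the mouse, and the sex of the mice was not given. The labels do not say whether each sample was 1 mouse or a pool, and where samples were not from separate mice the p-values measure only the spread between samples, which may be technical.

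Blood vessel growth is controlled by secreted ligands and by receptor tyrosine kinases of the endothelium. VEGF-A binds the receptors encoded by *Kdr* and *Flt1* and drives the growth of endothelial cells, while angiopoietin-1 binds TIE2, the product of *Tek*, and stabilizes vessels together with the related receptor TIE1. Satellite cells lie next to capillaries, secrete VEGF-A, and also carry TIE2, through which angiopoietin-1 is known to favour their quiescence. *Cav1* encodes caveolin-1, the coat protein of caveolae, which is abundant in endothelial cells and in quiescent satellite cells. *Lrg1* encodes a secreted leucine-rich glycoprotein that modifies TGF-β signalling in vessels, and *Tm4sf1* encodes a membrane protein of the L6 family found on endothelial cells.

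The promoters of the members that the results turn on are shown as RefSeq gives them on GRCm38.p6, from 250 bases before to 50 bases after the start site, 5′ to 3′ on the strand of the gene. *Lrg1* and *Tm4sf1* are shown because they were the members with an unadjusted p under 0.05, and *Tek* and *Tie1* because they encode related receptors at unlike levels. Capitals mark CAGGAAG on either strand, a sequence of the kind bound by ETS factors. Only this exact sequence is marked.
Lrg1, chr17:56121897-56122196, minus strand: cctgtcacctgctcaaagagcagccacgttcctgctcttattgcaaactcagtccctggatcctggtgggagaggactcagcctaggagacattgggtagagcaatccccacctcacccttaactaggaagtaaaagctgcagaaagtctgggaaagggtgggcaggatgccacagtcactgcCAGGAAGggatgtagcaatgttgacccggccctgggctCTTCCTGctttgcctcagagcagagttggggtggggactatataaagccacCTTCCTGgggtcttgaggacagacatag
Tm4sf1, chr3:57301939-57302238, minus strand: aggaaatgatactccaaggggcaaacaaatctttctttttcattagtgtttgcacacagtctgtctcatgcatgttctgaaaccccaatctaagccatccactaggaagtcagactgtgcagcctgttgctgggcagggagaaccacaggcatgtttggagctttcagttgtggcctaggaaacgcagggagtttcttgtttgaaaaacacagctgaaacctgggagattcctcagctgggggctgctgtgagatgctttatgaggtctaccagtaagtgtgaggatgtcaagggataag
Tek, chr4:94739039-94739338, plus strand: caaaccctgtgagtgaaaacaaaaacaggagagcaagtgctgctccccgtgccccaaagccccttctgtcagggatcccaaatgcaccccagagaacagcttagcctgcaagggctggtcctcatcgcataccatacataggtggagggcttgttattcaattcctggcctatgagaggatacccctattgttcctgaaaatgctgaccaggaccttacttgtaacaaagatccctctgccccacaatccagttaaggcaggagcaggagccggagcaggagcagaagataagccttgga
Tie1, chr4:118489800-118490099, minus strand: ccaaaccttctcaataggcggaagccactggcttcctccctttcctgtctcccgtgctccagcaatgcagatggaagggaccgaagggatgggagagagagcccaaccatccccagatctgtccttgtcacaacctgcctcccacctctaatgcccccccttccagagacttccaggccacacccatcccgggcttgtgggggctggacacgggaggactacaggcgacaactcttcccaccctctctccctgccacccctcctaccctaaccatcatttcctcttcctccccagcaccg

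A promoter was found for 8 of the 10 members, with 10 windows of 300 bases among them. CAGGAAG was found 3 times in the *Lrg1* window, with its first base at −67, −29 and 22 relative to the start site, counting the start site as 0, and in no window of another member. Of 32817 mouse promoters of this length, 13.3% held it at least once and 0.128% held it 3 times or more. Variants were not counted, such as AGGAAG. The *Tm4sf1*, *Tie1* and *Flt1* windows and a *Cav1* window hold it on one of the strands. The *Lrg1* window also holds it at a place that is not marked. TAATTA is of the kind bound by homeodomains, TTCCNGGAA by STAT factors and TACGTG by hypoxia-inducible factors. These sequences were searched on both strands and had no exact match in the windows of the members. The exact sequences occur in 5.30%, 1.15% and 3.23% of all promoters. Shorter forms were not counted and do occur in the windows. TAAT lies on one of the strands in the *Tm4sf1* and *Tie1* windows, and ACGTG on the reverse strand in the *Lrg1* window. These matches describe the letters of the windows, and binding was not measured in these libraries.

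The libraries held between 17822367 and 27908054 estimated reads. The same gene was compared across libraries in CPM, its read count scaled to a library size normalized by TMM, and different genes were compared in TPM, which also divides by transcript length. *Pax7* was at 1666, 1506 and 1480 CPM in Pax7WT and 1410, 1460 and 1637 CPM in Pax7KR libraries, and the summed level of 14 satellite cell genes lay between 11430 and 12130 CPM in all 6. Markers of endothelial and immune cells, which the gate selected against, were present. The sum of 25 endothelial markers, a list that holds no member, was 194, 264 and 334 CPM in Pax7WT and 353, 455.5 and 254 CPM in Pax7KR libraries, and none of the 25 was at 0 in any library. The summed level of 10 immune markers lay between 10.03 and 14.7 CPM, and that of 9 fibro-adipogenic genes between 1950 and 2093 CPM. Pax7KR replicate 2 stood apart in its Y-linked genes, a check chosen after their values were seen. The sum of *Ddx3y*, *Uty*, *Kdm5d* and *Eif2s3y* was 131 CPM in this library and between 299 and 355 CPM in the others, while *Xist* was at 2.29 CPM or less in all 6. Values without this library are given beside the members whose direction or size depended on it.

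None of the 10 members passed the adjusted cut-off of 0.1 in the quasi-likelihood test of edgeR. In the same test 0 of all genes (0%) passed, against 803 with an unadjusted p under 0.05. Of the members, 9 were higher and 1 was lower in Pax7KR satellite cells, with a median log2 difference (log2 fold change of Pax7KR over Pax7WT) of 0.26 against −0.004 over all genes tested. An unadjusted p under 0.05 was reached by *Lrg1* and *Tm4sf1*, both higher, where 2.26% of all genes tested were higher with such a p. The values of the genotypes did not overlap for the same 2 members, where 5.14% of all genes did not overlap with Pax7KR higher and 5.19% with Pax7KR lower. *Lrg1* and *Tm4sf1* are among the genes that the study picked from these libraries for display, so their direction is not independent evidence. The other 8 members had overlapping genotypes. DESeq2 called *Lrg1* with 0.175% of the genes to which it gave an adjusted p. DESeq2 with an offset for the average transcript length called *Lrg1* and *Tm4sf1* with 0.334% of such genes, and edgeR without a filter on low reads called *Lrg1* with 0.652% of genes.

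**Figure D1:**
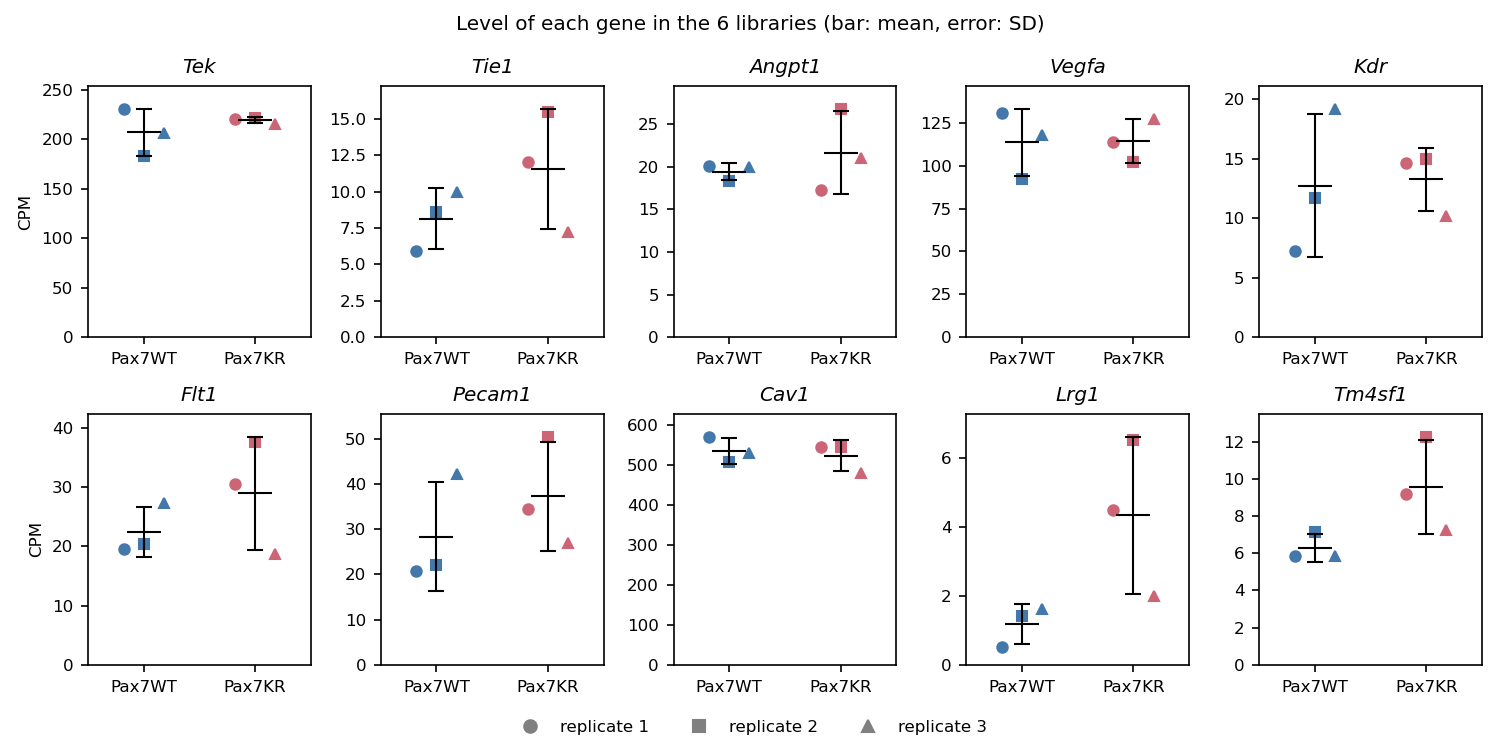
Level in CPM (vertical axis, starting at 0) of the 10 genes in Pax7WT (blue) and Pax7KR (red) libraries, with 1 point per library, the mean as a bar and the SD as the error (3 libraries per genotype). The points of the genotypes are apart for Lrg1 and Tm4sf1 and overlap for the other 8 genes.

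The members covered a wide range of levels per length. *Cav1* was the highest at 511 TPM on average over the 6 libraries, followed by *Vegfa* at 101 TPM and *Tek* at 78.8 TPM. *Pecam1* was at 16.8 TPM, *Tm4sf1* at 13.0 TPM and *Angpt1* at 8.66 TPM. The lowest were *Flt1* at 6.51 TPM, *Tie1* at 4.32 TPM, *Lrg1* at 4.20 TPM and *Kdr* at 3.65 TPM. In this order neighbours overlapped in their range over libraries, except *Cav1* with *Vegfa* and *Tek* with *Pecam1*. The 3 genes known from satellite cells, *Cav1*, *Vegfa* and *Tek*, thus lay above the 7 others in every library. The order was the same with CPM per kilobase.

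Among the receptors of the angiopoietins, *Tek* (ENSMUSG00000006386, chromosome 4, 94739289 to 94874976, plus strand of GRCm38) was at 231, 184 and 207 CPM in Pax7WT and 221, 221 and 216 CPM in Pax7KR libraries. All 3 Pax7KR values lay within the range of the Pax7WT values. Between the genotypes the log2 fold change was 0.08 (SE 0.08, edgeR adjusted p = 0.998). Most reads of *Tek* were assigned to Tek-203, which encodes 1123 residues and held 72.6% of them, and Tek-201, which encodes 1122 residues, held 22.1%.
*Tie1* (chromosome 4, 118471191 to 118490061, minus strand), which encodes a receptor that pairs with TIE2, was at 5.92, 8.58 and 9.99 CPM in Pax7WT and 12.0, 15.5 and 7.23 CPM in Pax7KR libraries. Pax7KR replicates 1 and 2 lay above all Pax7WT libraries and Pax7KR replicate 3 lay among them. The log2 fold change was 0.51 (SE 0.30, edgeR adjusted p = 0.992), and it was 0.25 without Pax7KR replicate 2 and 0.76 without Pax7KR replicate 3. The mean level per length of *Tek* exceeded that of *Tie1* in both genotypes, at 74.1 ± 8.62 TPM against 3.49 ± 0.921 TPM (SD, n = 3) in Pax7WT and at 83.6 ± 4.06 TPM against 5.15 ± 1.74 TPM (SD, n = 3) in Pax7KR libraries.

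The ligand *Angpt1* (chromosome 15, 42424723 to 42676977, minus strand) was at 20.1, 18.4 and 19.9 CPM in Pax7WT and 17.2, 26.8 and 21.0 CPM in Pax7KR libraries. The lowest and the highest value were both in Pax7KR libraries. Its log2 fold change was 0.16 (SE 0.14, edgeR adjusted p = 0.998) and turned to −0.03 without Pax7KR replicate 2. A gene on the opposite strand, *Gm17473*, overlaps *Angpt1* and held 64 reads over all libraries.
The remaining genes of the pathway overlapped between the genotypes, except *Dok2*. Of the 9 genes of the angiopoietin and TIE list, 8 were tested, 7 were higher and 1 was lower in Pax7KR cells, and 0 had an unadjusted p under 0.05 or an adjusted p under 0.1 in edgeR. Their median log2 fold change was 0.25. With single libraries left out, 1 of them had an unadjusted p under 0.05 in each fit but that without Pax7KR replicate 2. The share of all genes with such a p in those fits is not given, here or for the lists below. *Angpt2*, the context-dependent antagonist, was at 1.40, 1.81 and 2.83 CPM in Pax7WT and 2.36, 3.35 and 1.80 CPM in Pax7KR libraries, and *Angpt4* was not tested, with 0.0487 CPM at most. *Ptprb*, which encodes the endothelial phosphatase of TIE2, was at 29.1, 41.8 and 58.0 CPM in Pax7WT and 59.2, 71.9 and 47.9 CPM in Pax7KR libraries, a log2 fold change of 0.48 (SE 0.32, edgeR adjusted p = 0.992). *Svep1*, which encodes a large matrix protein that binds TIE1, was the lower gene at −0.12 (SE 0.06) and its levels were between 241 and 283 CPM. The log2 fold changes of the adaptors *Dok2* and *Grb14* were 1.22 (SE 0.74) and 0.18 (SE 0.52) on levels of 2.34 CPM or less.

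*Vegfa* (chromosome 17, 46016993 to 46032369, minus strand) was at 131, 92.4 and 118 CPM in Pax7WT and 114, 102 and 128 CPM in Pax7KR libraries. The values of the genotypes lay in the same range. The lowest was Pax7WT replicate 2, which was the lowest library for 18.5% of all genes tested. *Socs3* was also lowest in it, at 669.7 CPM against 1061 CPM or more in the other libraries, and a shared cause was not tested. The log2 fold change of *Vegfa* was 0.01 (SE 0.14, edgeR adjusted p = 0.998), and it was −0.12 without Pax7WT replicate 2. Of its 10 transcripts, Vegfa-202, annotated with 368 residues, held 68.5% of the reads and Vegfa-201, with 146 residues, held 13.97%.
Of 15 tested genes of the hypoxia response, the best known regulator of *Vegfa*, 6 were higher and 9 lower, their median log2 difference was −0.04, and 0 had an unadjusted p under 0.05. *Ndrg1*, *Arnt* and *Ldha* had the highest CPM of them, with log2 fold changes of 0.08, 0.02 and −0.07, and *Pgk1*, which lies above *Arnt* per length, was at 0.13. The smallest p in this list belonged to *Adm*, which encodes the vasodilator adrenomedullin, with a log2 fold change of −0.97 (SE 0.50, edgeR adjusted p = 0.992) on levels of 1.54 CPM or less.

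The VEGF receptors were low. *Kdr* (chromosome 5, 75932827 to 75978458, minus strand), which encodes the main signalling receptor VEGFR2, was at 7.28, 11.7 and 19.2 CPM in Pax7WT and 14.6, 15.0 and 10.2 CPM in Pax7KR libraries. Its spread within Pax7WT was wider than the difference between the genotypes, with a log2 fold change of 0.07 (SE 0.39, edgeR adjusted p = 0.998) that turned to −0.23 without Pax7WT replicate 1 and to −0.03 without Pax7KR replicate 2.
*Flt1* (chromosome 5, 147561604 to 147726011, minus strand), which encodes VEGFR1, a receptor that largely traps the ligand, was at 19.5, 20.4 and 27.3 CPM in Pax7WT and 30.6, 37.6 and 18.6 CPM in Pax7KR libraries. Pax7KR replicate 3 was the lowest of all 6 and the other 2 Pax7KR libraries were the highest. Its log2 fold change was 0.37 (SE 0.29, edgeR adjusted p = 0.998), between 0.14 without Pax7KR replicate 2 and 0.61 without Pax7KR replicate 3. *Flt1* makes a membrane receptor and a shorter secreted one that lacks the kinase. The full-length Flt1-202, with 1333 residues over 30 exons, held 69.0% of the reads, and Flt1-203, with 688 residues over 13 exons, held 30.4%. The share of Flt1-203 was 31.2%, 28.9% and 25.2% in Pax7WT and 31.6%, 38.3% and 18.4% in Pax7KR libraries, so the Pax7KR libraries spanned the Pax7WT range on both sides. These shares are estimates for transcripts that share exons and were not tested.

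Of the 13 genes of the VEGF list, 12 were tested, with 8 higher and 4 lower, a median log2 difference of 0.06 and 0 with an unadjusted p under 0.05 or an adjusted p under 0.1 in edgeR. The number with an unadjusted p under 0.05 was 3 without Pax7KR replicate 3 and 1 without Pax7WT replicate 3. The co-receptors *Nrp1* and *Nrp2* had log2 fold changes of 0.32 (SE 0.21) and 0.30 (SE 0.26) with overlapping genotypes. *Flt4*, which encodes VEGFR3, did not overlap, with 1.43, 0.790 and 1.61 CPM in Pax7WT and 1.71, 2.47 and 1.66 CPM in Pax7KR libraries. *Vegfb* did not overlap in the other direction, with 16.7, 18.1 and 17.5 CPM in Pax7WT and 15.1, 15.0 and 16.3 CPM in Pax7KR libraries. Neither passed a test, with log2 fold changes of 0.60 (SE 0.37, edgeR adjusted p = 0.992) and −0.17 (SE 0.11, edgeR adjusted p = 0.992). Of the other ligands, the log2 fold changes were −0.02 for *Vegfc*, −0.37 for *Vegfd* and 0.28 for *Pgf*, all with overlapping genotypes. Those of the signalling genes *Plcg1* and *Shb* were 0.05 and −0.36, and *Sh2d2a* had no reads.

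**Figure D2:**
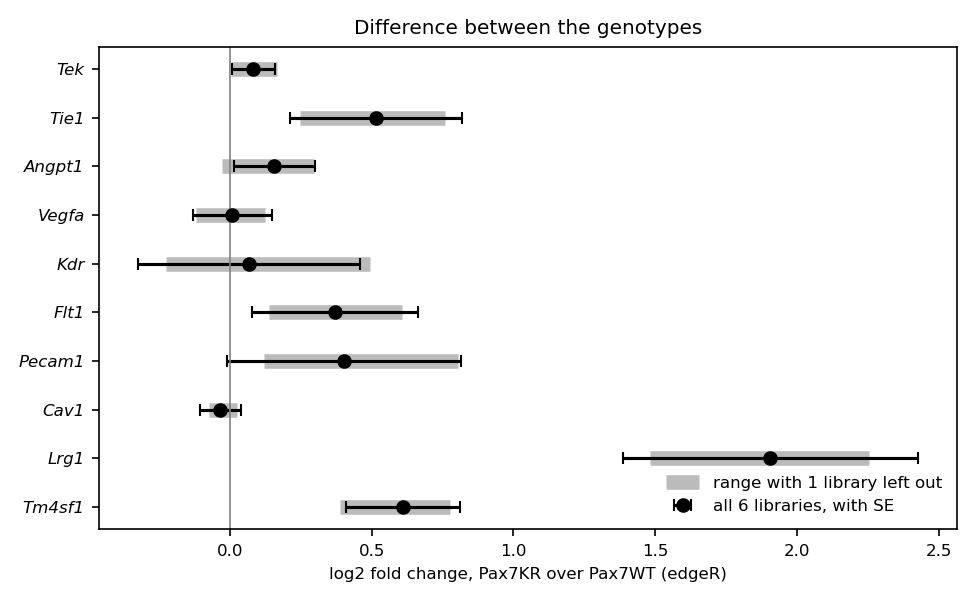
Log2 fold change of Pax7KR over Pax7WT from edgeR (horizontal axis) for the 10 genes, with all 6 libraries as points with the SE, and grey bars for the range when 1 library was left out. Lrg1 lies at 1.91 and Tm4sf1 at 0.61, while the bars of Angpt1, Vegfa, Kdr and Cav1 cross 0.

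*Pecam1* (chromosome 11, 106654217 to 106750628, minus strand) encodes CD31, the endothelial adhesion protein that the gate selected against. It was at 20.7, 22.0 and 42.2 CPM in Pax7WT and 34.5, 50.4 and 26.9 CPM in Pax7KR libraries. Pax7KR replicate 2 was the highest and Pax7WT replicate 3 the next, so the genotypes overlapped. This gave a log2 fold change of 0.40 (SE 0.41, edgeR adjusted p = 0.998), and it was 0.12 without Pax7KR replicate 2 and 0.80 without Pax7WT replicate 3. Its reads were split over Pecam1-203, Pecam1-202 and Pecam1-204 at 38.4%, 31.9% and 27.6%, which encode 697, 716 and 727 residues. Of the other genes the gate selected against, *Ly6a* was near *Pecam1* per length, at 18.4 TPM, and *Itgam* and *Ptprc* were lower, at 0.316 and 0.235 TPM on average. *Ly6a*, for SCA-1, was between 5.53 and 9.41 CPM, *Itgam*, for CD11b, between 0.452 and 1.29 CPM and *Ptprc*, for CD45, between 0.0946 and 1.27 CPM.

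*Cav1* (chromosome 6, 17306335 to 17341452, plus strand) was at 571, 506 and 530 CPM in Pax7WT and 545, 545 and 479 CPM in Pax7KR libraries. Its log2 fold change of −0.03 (SE 0.07, edgeR adjusted p = 0.998) was the only one below 0 among the members and turned to 0.03 without Pax7KR replicate 3. Cav1-201, with 178 residues, held 65.8% of the reads and Cav1-202, which encodes a shorter form of 147 residues, held 26.8%.
The other caveolar genes were close to level between the genotypes. Of 10 genes of caveolae, 9 were tested, with 5 higher and 4 lower, a median log2 difference of 0.004 and 0 with an unadjusted p under 0.05. *Cav2*, whose product joins caveolin-1 in the coat, was between 35.3 and 45.2 CPM with a log2 fold change of 0.09. The cavins, which stabilize the coat, had log2 fold changes of 0.06 for *Cavin1*, −0.09 for *Cavin2*, −0.02 for *Cavin3* and 1.66 (SE 1.03) for *Cavin4*, a muscle gene at 0.335 CPM or less. The log2 fold changes of *Ehd2*, *Pacsin2* and *Pacsin3*, which shape the neck of caveolae, were −0.03, 0.07 and 0.004. *Cav3*, the caveolin of muscle fibres, was at 0.0975 CPM or less and was not tested.

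*Lrg1* (ENSMUSG00000037095, chromosome 17, 56119678 to 56122001, minus strand) had the largest log2 fold change of the members. It was at 0.515, 1.41 and 1.61 CPM in Pax7WT and 4.51, 6.53 and 1.99 CPM in Pax7KR libraries. These rest on 14, 25 and 33 reads in Pax7WT and 103, 156 and 42 reads in Pax7KR libraries, all on its single transcript of 342 residues. Pax7KR replicates 1 and 2 were the highest, and Pax7KR replicate 3 lay just above the highest Pax7WT library. The mean was 1.18 ± 0.583 CPM (SD, n = 3) in Pax7WT and 4.34 ± 2.28 CPM (SD, n = 3) in Pax7KR libraries. For *Lrg1* the log2 fold change was 1.91 (SE 0.52, edgeR adjusted p = 0.992), a fold of 3.75. When single libraries were left out, it ran from 1.48 without Pax7KR replicate 2 to 2.25 without Pax7KR replicate 3. The adjusted p in these edgeR fits lay between 0.115 and 0.9999. The call depended on the tool and the filter. The adjusted p was 0.05003 in DESeq2, 0.0981 in DESeq2 with the length offset, 5.93e-05 in edgeR without a filter on low reads, and 0.897 in limma-voom.
The genes through which LRG1 is known to signal, or that control it, were not shifted as a group. Of 13 genes of this list, *Lrg1* included, 7 were higher and 6 lower, their median log2 difference was 0.002, and *Lrg1* was the only one with an unadjusted p under 0.05 with all 6 libraries. That number was 3 without Pax7WT replicate 2, 2 without Pax7WT replicate 3 and 3 without Pax7KR replicate 3. Of its receptor genes, *Eng*, which encodes endoglin and is also among the endothelial markers, had a log2 fold change of 0.22 (SE 0.12, edgeR adjusted p = 0.992). The receptor genes *Acvrl1*, *Tgfbr1*, *Tgfbr2* and *Tgfbr3* had log2 fold changes of −0.05, −0.10, −0.04 and −0.009. Those of *Il6st*, *Stat3* and *Socs3*, of the interleukin-6 pathway that induces *Lrg1* in liver, were 0.05, 0.05 and 0.004.

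*Tm4sf1* (ENSMUSG00000027800, chromosome 3, 57285611 to 57301988, minus strand) was at 5.84, 7.17 and 5.85 CPM in Pax7WT and 9.18, 12.3 and 7.23 CPM in Pax7KR libraries, on 120 to 293 reads. The genotypes did not overlap, but Pax7KR replicate 3 and Pax7WT replicate 2 lay side by side. The log2 fold change was 0.61 (SE 0.20, edgeR adjusted p = 0.992), a fold of 1.53. It was 0.39 without Pax7KR replicate 2, where its unadjusted p in edgeR was 0.0829, and 0.78 without Pax7KR replicate 3.
The transcript length entered this gene more than the other members. With an offset for the average transcript length the log2 fold change was 0.90, with an adjusted p of 0.0459 in DESeq2 and 0.764 in edgeR. The level per length was 8.44, 7.72 and 10.4 TPM in Pax7WT and 17.7, 20.04 and 13.8 TPM in Pax7KR libraries. Its reads were split over Tm4sf1-202, Tm4sf1-206 and Tm4sf1-201 at 31.7%, 30.5% and 27.7%, and their lengths are 2855, 767 and 1436 bases. Tm4sf1-201 held 53.8%, 76.1% and 0% of the reads in Pax7WT and 15.9%, 26.7% and 0% in Pax7KR libraries, so libraries of both genotypes had none. The short Tm4sf1-206, which has no coding sequence, held 25.8%, 0% and 36.0% in Pax7WT and 32.3%, 37.1% and 41.5% in Pax7KR libraries. Of the other L6 family genes, *Tm4sf4*, *Tm4sf5* and *Tm4sf20* had no reads and *Tm4sf19* was at 0.0735 CPM or less, so none was tested.

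**Figure D3:**
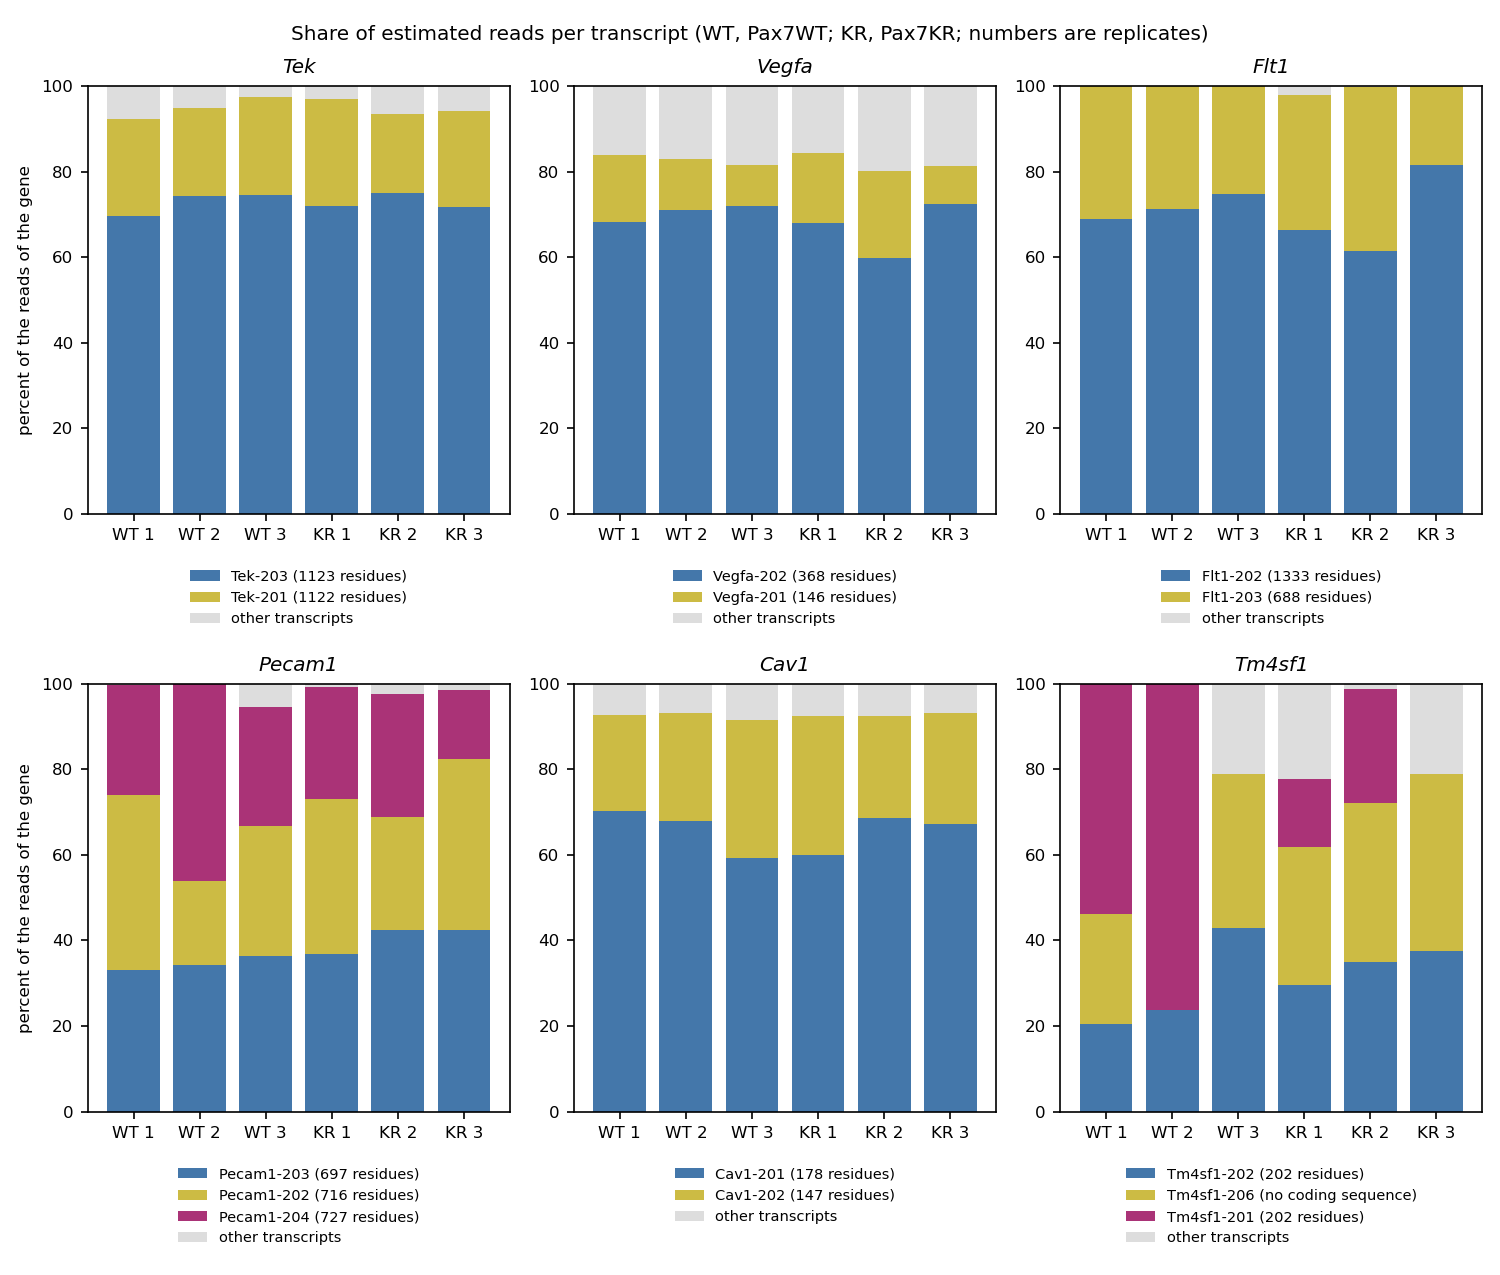
Share of the estimated reads of a gene (vertical axis, percent) on each transcript that held 10% or more of them, in the 6 libraries, for the 6 genes with more than 1 such transcript. The share of Tek-203 lies between 69.7% and 75.0%, while Tm4sf1-201 runs from 0% to 76.1%.

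Among the lower members, *Tie1*, *Pecam1*, *Lrg1* and *Tm4sf1* were highest in Pax7KR replicate 2 and lowest in Pax7WT replicate 1, as was the sum of the endothelial markers. *Kdr* was highest in Pax7WT replicate 3, *Flt1* lowest in Pax7KR replicate 3 and *Angpt1* lowest in Pax7KR replicate 1. Pax7KR replicate 2 was the highest library for 6 of the 10 members and for 17 of the 25 endothelial markers, where it was the highest for 16.7% of all genes tested. Pax7WT replicate 1 was the lowest library for 5 of the 10 members and 13 of the 25 markers, where it was the lowest for 19.6% of all genes tested. Of the 25 markers, 21 were higher and 4 lower in Pax7KR, with a median log2 difference of 0.32, and 2 had an unadjusted p under 0.05. These were *Icam2* and *Mmrn2*, an adhesion gene and a gene of the endothelial matrix, with log2 fold changes of 0.97 (SE 0.32, edgeR adjusted p = 0.992) and 0.62 (SE 0.21, edgeR adjusted p = 0.992). *Sox7*, an endothelial transcription factor, had the next smallest p, with a log2 fold change of 0.59 (SE 0.30, edgeR adjusted p = 0.992). The number of markers with an unadjusted p under 0.05 was 1 without Pax7KR replicate 2 and 1 without Pax7WT replicate 1. It was 4 without Pax7WT replicate 2 and 9 without Pax7KR replicate 3. Without Pax7KR replicate 3, 32 of all genes passed the adjusted cut-off in edgeR, against 0 with all 6 libraries. The share of all genes with an unadjusted p under 0.05 in these fits is not given, so the counts do not single out the markers. The 3 markers with the highest CPM, a measure that also grows with transcript length, were lowest in Pax7WT replicate 1 and highest in Pax7KR replicate 2. *Aqp1*, a water channel, was at 28.8, 48.4 and 70.7 CPM in Pax7WT and 67.2, 92.0 and 45.5 CPM in Pax7KR libraries. *Vwf*, which encodes von Willebrand factor, was at 22.6, 33.2 and 40.4 CPM in Pax7WT and 52.4, 80.8 and 37.1 CPM in Pax7KR libraries. *Fabp4*, a fatty acid binding gene of capillaries, was between 24.2 and 54.0 CPM. In these sorted populations fewer endothelial cells and less RNA per endothelial cell cannot be told apart, and the part of such cells in the levels of *Tie1*, *Kdr*, *Flt1*, *Pecam1*, *Lrg1* and *Tm4sf1* was not tested.

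**Figure D4:**
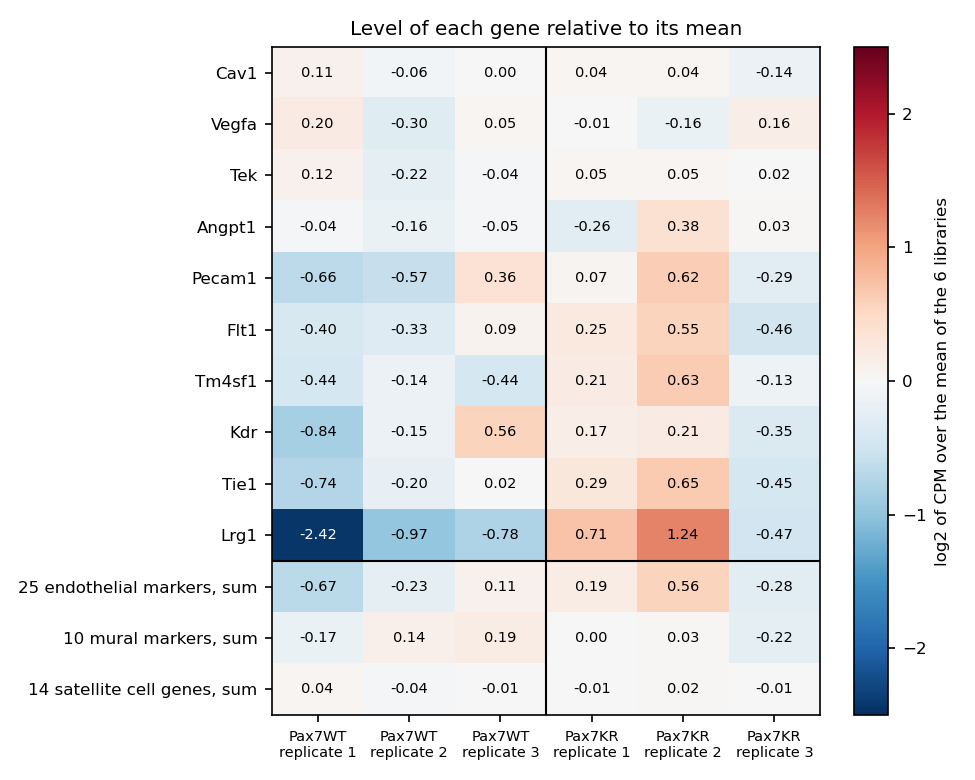
Log2 of the CPM of each gene over its mean of the 6 libraries (colour and printed number), with the sums of 25 endothelial markers, 10 mural markers and 14 satellite cell genes in the last rows. Cav1, Vegfa and Tek run from −0.30 to 0.20, while Lrg1 runs from −2.42 in Pax7WT replicate 1 to 1.24 in Pax7KR replicate 2.

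Each member was set against the summed endothelial level of its library, a ratio chosen after the data were seen. Per 100 CPM of endothelial markers, *Tie1* was at 3.06, 3.25 and 2.99 CPM in Pax7WT and 3.41, 3.39 and 2.85 CPM in Pax7KR libraries. The ratio of *Tie1* ran from 2.85 to 3.41, and its CPM ran from 5.92 to 15.5. Which cells the reads came from was not tested, and the ratio depends on the markers summed. *Tm4sf1* was at 3.02, 2.72 and 1.75 CPM in Pax7WT and 2.60, 2.70 and 2.85 CPM in Pax7KR libraries per 100 CPM of markers, so its genotypes overlapped in the ratio although they did not in CPM. *Lrg1* was at 0.266, 0.535 and 0.481 CPM in Pax7WT and 1.276, 1.44 and 0.782 CPM in Pax7KR libraries per 100 CPM of markers, without overlap. The two-sided p of *Lrg1* was 0.1 (exact permutation test of 3 libraries against 3), which is the smallest that this design can give. *Lrg1* was the only one of the 10 members without overlap in this ratio. Its genotypes did not overlap in CPM before the ratio was chosen, so this p is not independent evidence. Over all genes tested, 0.478% did not overlap in this ratio with Pax7KR higher and 5.26% with Pax7KR lower. The marker sum by which the ratio divides was highest in Pax7KR replicates 2 and 1, which lowers ratios there. *Flt1*, *Kdr* and *Pecam1* overlapped, at ratios of 7.33 to 10.1, 3.29 to 5.74 and 8.34 to 12.6 CPM per 100 CPM of markers.

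**Figure D5:**
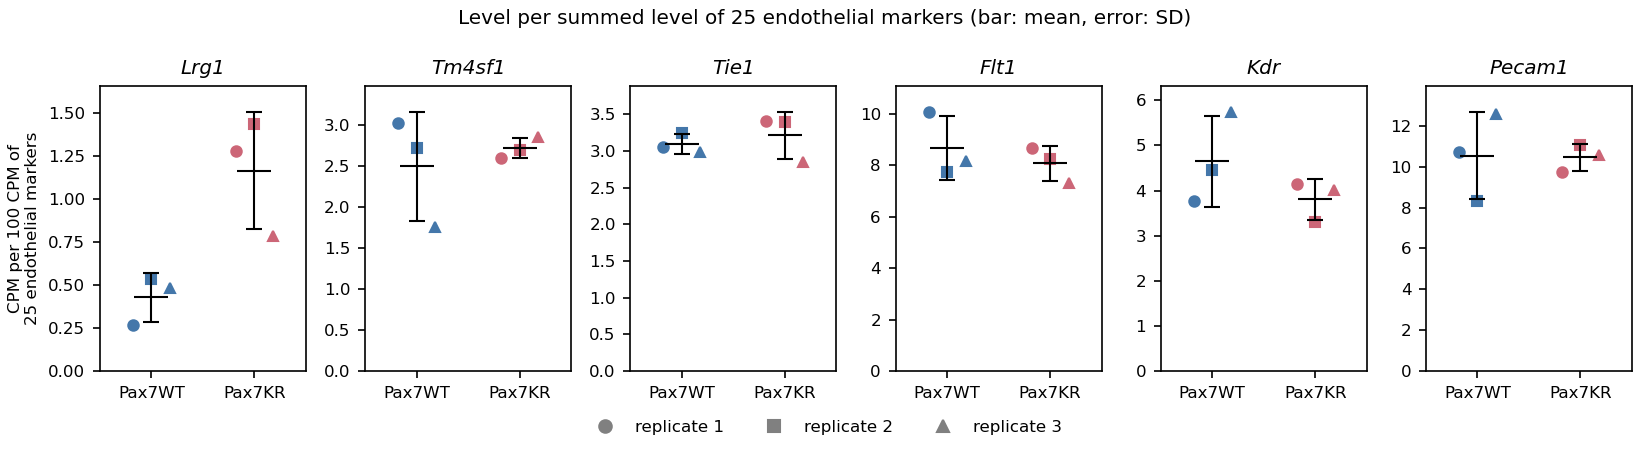
Level of 6 genes per 100 CPM of the summed 25 endothelial markers (vertical axis, starting at 0) in Pax7WT (blue) and Pax7KR (red) libraries, with the mean as a bar and the SD as the error (3 libraries per genotype). The genotypes are apart for Lrg1 and overlap for Tm4sf1, Tie1, Flt1, Kdr and Pecam1.

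Among markers of other vessel-associated and blood cells, the mural and erythroid sums did not share the library order of the endothelial sum. The immune sum nearly did. Of 10 mural markers, genes of pericytes and smooth muscle, 1 was higher and 9 were lower in Pax7KR cells with a median log2 difference of −0.18 and 0 with an unadjusted p under 0.05, or 3 without Pax7WT replicate 1. Their sum was 304, 378 and 392 CPM in Pax7WT and 344, 350 and 294 CPM in Pax7KR libraries. All 7 erythroid genes were higher, with a median log2 difference of 0.66 and 0 with an unadjusted p under 0.05, or 6 without Pax7WT replicate 3. Their sum was 193, 213 and 383 CPM in Pax7WT and 357, 332 and 566 CPM in Pax7KR libraries, so the highest was Pax7KR replicate 3, which was low in the endothelial members. Of 10 immune markers, 7 were higher and 3 lower, their median log2 difference was 0.13, and the 2 with an unadjusted p under 0.05, *C1qa* and *Cd52*, were at 0.520 CPM or less. The 9 fibro-adipogenic genes had 4 higher and 5 lower, with a median log2 difference of −0.01, and the 5 tested lymphatic genes had 2 higher and 3 lower, with a median of −0.06. The 14 satellite cell genes had 7 higher and 7 lower with a median log2 difference of 0.001, and 0 of the genes in these last 3 lists had an unadjusted p under 0.05 with all 6 libraries.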

How the data were processed

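RNA-sequencing of 6 samples was used, and samples were grouped by their labels. Libraries were made by the authors from 15 ng of RNA with a directional kit and sequenced as read pairs. The authors quantified reads with Salmon (version 1.3.0) against GENCODE transcripts with the GRCm38 genome as decoy, per the study's methods and the submitters' processing notes, and deposited estimated counts per transcript, not normalized, beside TPM values and effective transcript lengths. A deposited table of the authors' own comparison with DESeq2 (version 1.28.1) holds fold changes and p-values and was not used.

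Estimated counts were summed per gene through GENCODE vM21, an annotation of the same build, which matched 139791 of 140992 transcripts, and rounded. The unmatched transcripts held 0.606% of the reads and were left out. Depth was between 17822367 and 27908054 reads per library. A gene entered the test where at least 2 libraries each held at least 5 reads of it. Testing used edgeR (version 4.0.16), with TMM normalization and the robust quasi-likelihood test on genotype. The p-values of the 17152 genes were adjusted by the Benjamini-Hochberg method, with a cut-off of 0.1. The common biological coefficient of variation was 13.8%, and the chi-square per gene between libraries was at least 10.2, where sampling noise gives about 1 on average, so no libraries agreed within sampling noise. TPM was summed per gene. DESeq2 (version 1.42.0) and limma (version 3.58.1) were run as alternatives in R (version 4.3.3), and scipy (version 1.17.1) gave the exact permutation test. The steps were tested on simulated data.

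The members and the marker lists were chosen with earlier results of these data known. Named were all members, *Pax7*, the genes of the sort gate, every gene of the angiopoietin, VEGF, caveolae and L6 lists, transcripts with 10% or more of the reads of a member, and from the other lists genes among the 3 with the highest CPM and the 3 with the smallest p. *Acvrl1*, *Tgfbr2*, *Stat3*, *Pgk1* and the sex-linked genes are named beyond this rule. Of the 31-base sequences of a member, at most 2.11% (*Pecam1*) occur in transcripts of other genes. Genes that overlap on the opposite strand are given where present, and the strand setting of the quantification is not given in the sources used here.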

Additional observations from a re-analysis of the deposited data

How the results depend on the processing

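The count of called genes moved with the tool and the filter more than with the normalization. In edgeR, 0 genes were called with TMM, relative log expression or upper quartile normalization, with 10 reads in every library, with the length offset, without robust shrinkage and at a cut-off of 0.05, and limma-voom called 0. DESeq2 called 30 genes, of which 1 is a member, DESeq2 with the length offset called 45, of which 2 are members, and edgeR without a filter called 157, of which 1 is a member. With each library left out in turn, between 1 and 32 genes were called, 32 of them without Pax7KR replicate 3, and 0 members in each case. With the replicate numbers as a block, edgeR called 13 genes and 0 members. Same-numbered libraries did not deviate together, with correlations of −0.006, 0.06 and −0.05 across genes. With 3 libraries per genotype this cannot exclude that the numbers pair samples, and the labels do not say.

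*Lrg1*, *Tm4sf1*, *Tie1*, *Flt1*, *Pecam1* and *Tek* stayed higher in Pax7KR in all 16 alternative fits. The others were reversed when single libraries were left out. *Angpt1* ran from −0.027 without Pax7KR replicate 2 to 0.297, and *Vegfa* from −0.12 without Pax7WT replicate 2 to 0.12, with −0.075 without Pax7KR replicate 3. *Kdr* ran from −0.23 without Pax7WT replicate 1 to 0.495, with −0.0086 and −0.031 without Pax7KR replicates 1 and 2. *Cav1* ran from −0.074 to 0.026 without Pax7KR replicate 3, with 0.013 without Pax7WT replicate 1. The number of members with an unadjusted p under 0.05 was 1 without Pax7KR replicate 2 and 4 without Pax7KR replicate 3. Over all alternative fits that number was 0 to 2 for angiopoietin and TIE genes, 0 to 3 for VEGF genes, 0 for caveolar genes, 1 to 3 for genes around *Lrg1*, 1 to 9 for endothelial, 0 to 3 for mural, 0 to 6 for erythroid, 0 to 2 for fibro-adipogenic and immune and 0 to 1 for hypoxia, satellite cell and lymphatic genes. The share of all genes with such a p in each fit is not given, so these counts cannot be set against it. The cause was not tested. Depth limits *Lrg1*, with 14 reads in its lowest library.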
